A study of Mus musculus with 10 samples.

Results

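Glycolysis was followed through 10 genes in the RNA-seq of ASZ001 cells, a mouse basal cell carcinoma (BCC) line: the glucose transporter gene Slc2a1 and the enzyme genes Hk1, Hk2, Pfkp, Aldoa, Tpi1, Pgk1, Pgam1, Eno1 and Ldha. They were chosen by gene symbol, with earlier results of these data known. All 10 were found in both deposited expression tables, among 15997 gene names that the tables have in common. The study asked how TGFß and AP-1 signaling sustain Hedgehog output in BCC cells that resist SMO inhibitors. The TGFß arm set 3 libraries treated with SB431542 (10 µM), which blocks the receptor kinase ALK5, against 3 libraries with the vehicle DMSO. The AP-1 arm set 2 libraries treated with T-5224 (20 µM), which blocks AP-1, against a separate pair with DMSO. Every culture was of this same line, which the study uses as its SMO inhibitor-resistant BCC model, and was kept for 24 h in medium with 0.2% serum. The labels name no genetic change made for these experiments, and the study describes the replicates as biological samples.

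Values are in RPKM, the reads per kilobase of a gene and per unit of library depth, so that levels of genes of unequal length can be set side by side. Fold changes are given on the log2(RPKM + 0.5) scale, and a gene was called when limma's adjusted p (Benjamini-Hochberg over all genes tested) was below 0.05. Libraries held an estimated 31.8 to 51.1 M reads, as worked out from low RPKM values. The 6 basal keratinocyte markers (Krt5, Krt14, Krt15, Trp63, Itga6 and Cdh1) were each at or above 1 RPKM on average, and their summed level lay at 9201 to 9366 RPKM with DMSO and 6435 to 6896 with SB431542, and at 11753 to 12408 with DMSO and 1566 to 1625 with T-5224. Among markers of other cells, 1 of 6 fibroblast genes (Dcn), 1 of 4 immune genes (Cd68), 1 of 3 endothelial genes (Pecam1) and 0 of 4 melanocyte genes reached 1 RPKM. The summed immune level was 16.7 to 18.6 RPKM with DMSO and 32.7 to 33.2 RPKM with T-5224, and 7.09 to 10.5 RPKM with DMSO and 7.75 to 8.33 RPKM with SB431542. The summed endothelial level was 10.7 to 11.8 RPKM with DMSO and 4.11 to 4.67 RPKM with T-5224, and 5.23 to 6.57 RPKM with DMSO and 2.6 to 2.83 RPKM with SB431542. Fibroblast genes summed to 2.54 to 2.58 RPKM with DMSO and 2.65 to 2.84 RPKM with T-5224, and to 2.45 to 2.63 RPKM with DMSO and 3.69 to 4.14 RPKM with SB431542. Of the 4 differentiated keratinocyte markers 1 (Krt10) reached 1 RPKM, and the 4 summed to 4.02 to 4.08 RPKM with DMSO and 1.82 to 2.15 RPKM with T-5224, and to 2.69 to 2.84 RPKM with DMSO and 2.96 to 3.88 RPKM with SB431542. Fewer cells of a type and less RNA per cell cannot be told apart in such bulk samples, and the part that these marker shifts have in the results below was not tested.

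Glycolysis splits glucose into pyruvate in the cytosol and yields ATP and NADH without oxygen. Glucose enters through transporters such as GLUT1, hexokinase traps it as glucose 6-phosphate, phosphofructokinase commits it to the pathway, and the enzymes after aldolase recover the energy, while lactate dehydrogenase turns pyruvate into lactate and gives back NAD+. Many tumor cells make lactate even when oxygen is present. The transcription factors HIF-1 and MYC are known activators of these genes. HIF-1 binds the core letters ACGTG or GCGTG, MYC binds the E-box CACGTG, and AP-1 binds TGANTCA.

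Promoter sequence is shown for the 4 genes on which the results turn, the 2 that fell most with T-5224, the member that rose with each inhibitor, and Pgk1 as an enzyme of the middle of the pathway. Each line gives the 250 bases before the RefSeq start (mouse GRCm38.p6), 5′ to 3′ on the strand of the gene, and capitals mark the HIF core on either strand.
Slc2a1 (chr4:119108495-119108744, plus strand): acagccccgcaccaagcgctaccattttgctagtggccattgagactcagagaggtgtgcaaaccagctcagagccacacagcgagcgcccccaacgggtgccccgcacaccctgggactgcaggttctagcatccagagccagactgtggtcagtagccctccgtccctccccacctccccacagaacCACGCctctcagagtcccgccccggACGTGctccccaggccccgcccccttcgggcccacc
Ldha (chr7:46845554-46845803, plus strand): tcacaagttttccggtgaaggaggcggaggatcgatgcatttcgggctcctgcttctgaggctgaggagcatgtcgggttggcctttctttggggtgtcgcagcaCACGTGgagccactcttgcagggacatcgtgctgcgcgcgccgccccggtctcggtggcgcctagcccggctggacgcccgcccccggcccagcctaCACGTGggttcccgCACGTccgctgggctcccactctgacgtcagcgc
Hk2 (chr6:82774455-82774704, minus strand): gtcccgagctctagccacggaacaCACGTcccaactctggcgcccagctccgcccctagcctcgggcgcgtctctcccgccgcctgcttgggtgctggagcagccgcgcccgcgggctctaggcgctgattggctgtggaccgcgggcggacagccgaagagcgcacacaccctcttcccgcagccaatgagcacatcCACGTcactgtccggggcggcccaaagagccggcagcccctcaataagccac
Pgk1 (chrX:106186850-106187099, plus strand): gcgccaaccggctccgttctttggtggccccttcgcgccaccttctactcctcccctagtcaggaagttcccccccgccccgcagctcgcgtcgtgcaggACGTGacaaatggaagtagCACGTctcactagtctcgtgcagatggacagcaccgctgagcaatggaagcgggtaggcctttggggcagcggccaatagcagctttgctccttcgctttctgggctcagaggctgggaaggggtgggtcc
The motif lay at -61 and -36 in Slc2a1, at -226 and -52 in Hk2 and at -150 and -131 in Pgk1, counted from the start to the first base of the match. The Ldha window shown held 5 matches, at -145, -144, -48, -47 and -34. There, each of the 2 E-boxes accounts for a pair of overlapping matches, since CACGTG contains ACGTG on both strands. Another Ldha window, which is not shown, held 1 match, at -59, and no E-box. Of the 16 windows known for the members, 13 held the HIF core, in 9 of 10 genes, with Tpi1 as the exception. Of all 32851 such windows, 38.6% held it, and 41.5% of 27025 genes had at least 1 window with it. The E-box lay in 1 member, Ldha, and in 6.9% of all genes. The AP-1 letters TGANTCA lay in 1 member, Aldoa, at -218, and in 7.8% of all genes. These matches are a description of letters in a short window and show no binding.

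T-5224 lowered 9 of the 10 genes and raised 1, Hk2. At the same threshold 39.4% of all genes tested with T-5224 fell and 40.3% rose. Over the 10 genes, the median log2 fold change was -0.61, and that of all 10809 genes tested was 0.003. Slc2a1 and Ldha, at the entry of glucose and the exit as lactate, were down past 2-fold (log2 fold change beyond 1 in size), as were 10.6% of all genes tested, while 0 of the 10 were up past 2-fold, against 10.4% of all genes. The T-5224 and DMSO libraries did not overlap in any of the 10 genes. Such a gap was common, with 44.5% of all genes tested below and 45.1% above. Since the 10 genes were chosen with earlier results known, no enrichment is read from these shares or from those with SB431542.

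SB431542 lowered Slc2a1 and raised Hk2 and Pgam1, and the other 7 genes did not pass the threshold. Of all genes tested with SB431542, 10.0% fell and 10.2% rose. Over the 10 genes, the median log2 fold change was 0.19, against 0.008 over all 10842 genes tested. None of the 10 was down past 2-fold (0.581% of all genes) or up past 2-fold (0.231%). In 7 genes every SB431542 library lay above every DMSO library (23.9% of all genes), in Slc2a1 every SB431542 library lay below (21.3% of all genes), and Hk1 and Aldoa overlapped. In 6 genes (Pfkp, Tpi1, Pgk1, Pgam1, Eno1 and Ldha) the libraries thus lay above DMSO with SB431542 and below DMSO with T-5224, as in 5.73% of the 10462 genes tested in both experiments. The number of calls depended on DMSO replicate 1, which stood apart from the other DMSO libraries. Over all genes its log2 values differed from the rest of its group with an SD of 0.272, against 0.161 and 0.19 for the other DMSO libraries and 0.123 to 0.126 for the SB431542 libraries. Without it, 8 of the 10 genes were higher, all but Slc2a1 and Aldoa, when 19.9% of all genes were higher and 17.5% lower, and over the 10 genes the median log2 fold change was 0.15.

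**Figure D1:**
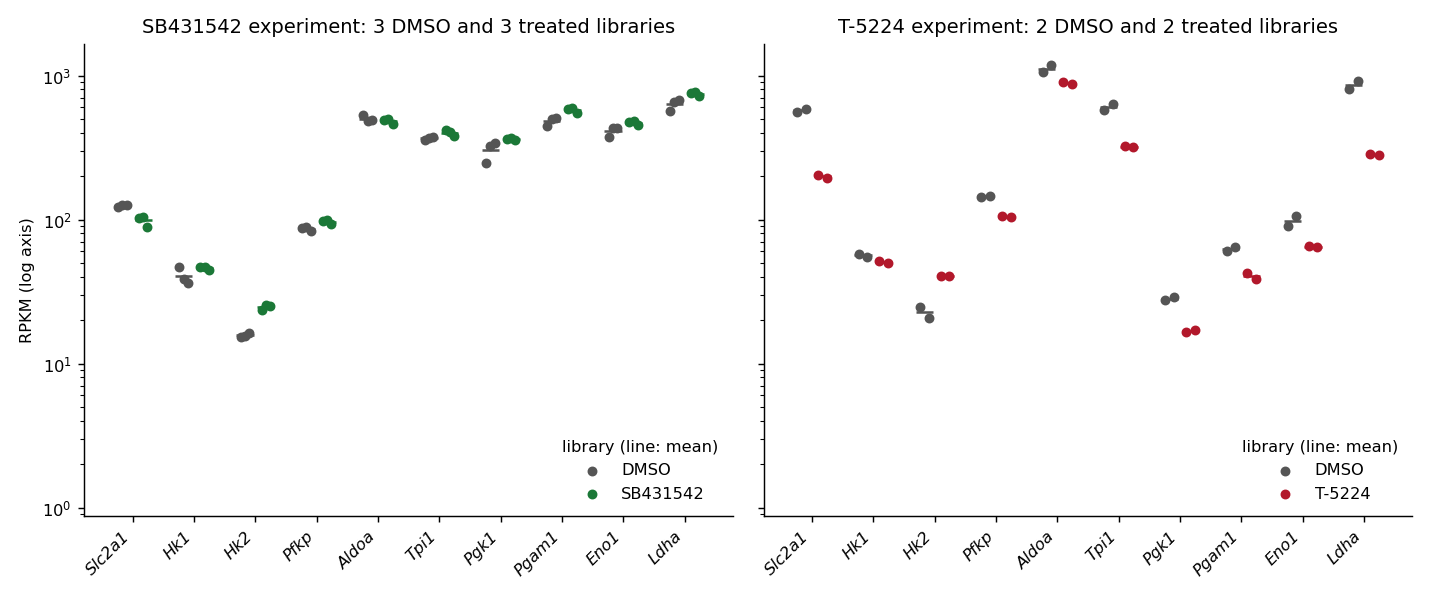
RPKM of the 10 genes in each library on a log axis, with DMSO in grey, SB431542 in green (left) and T-5224 in red (right), and a short line at each group's mean. With T-5224 every gene but Hk2 sits below its DMSO libraries. With SB431542 Slc2a1 sits below its DMSO libraries, Hk1 and Aldoa overlap with theirs, and the other genes sit above.

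Slc2a1 encodes GLUT1, the basal glucose transporter of many tissues and of keratinocytes (mm9 chromosome 4, 118781316 to 118809935, 10 exons). It was lower with both inhibitors. In the SB431542 experiment it was at 123.0, 125.9 and 125.3 RPKM with DMSO and at 102.4, 104.4 and 89.13 RPKM with SB431542. The 3 treated libraries lay below the 3 DMSO libraries. The level was 21.0% lower (log2 fold change -0.34, standard error 0.07, limma adjusted p = 0.0151), and the call was kept whichever library was left out, with an adjusted p of at most 0.0496. In the T-5224 experiment it was at 560.5 and 584.8 RPKM with DMSO and at 204.8 and 195.5 RPKM with T-5224. The groups were far apart, with means of 573 ± 17.2 and 200 ± 6.61 RPKM (SD, n = 2 each). The level was 2.86-fold lower (log2 fold change -1.51, standard error 0.05, limma adjusted p = 3.16e-10).

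Hexokinase opens the pathway by phosphorylating glucose, and HK1 and HK2 are the isozymes that bind mitochondria. Hk2 (mm9 chromosome 6, 82675019 to 82724448, 18 exons) is the inducible isozyme that many tumors express. With DMSO it was at 15.38, 15.57 and 16.22 RPKM, and with SB431542 at 23.65, 25.59 and 24.96 RPKM. Each treated library was above each DMSO library, with a 1.56-fold higher level (log2 fold change 0.64, standard error 0.05, limma adjusted p = 0.000562). In the T-5224 experiment Hk2 was at 24.78 and 20.62 RPKM with DMSO and at 40.39 and 40.39 RPKM with T-5224. It rose there as well, by 1.77-fold (log2 fold change 0.82, standard error 0.08, limma adjusted p = 1.72e-06), and was the only one of the 10 genes that was higher with both inhibitors.

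Hk1 (chromosome 10, 61731603 to 61842656, 20 exons), the isozyme found in most tissues, was the more abundant of the pair in every library. It was at 46.49, 38.81 and 36.0 RPKM with DMSO and at 46.54, 46.69 and 44.37 RPKM with SB431542. The groups overlapped through DMSO replicate 1, and the difference did not pass the threshold (log2 fold change 0.19, standard error 0.09, limma adjusted p = 0.188). Without that library the adjusted p was 0.00163. With T-5224 it was at 51.94 and 49.53 RPKM, against 57.8 and 55.21 RPKM with DMSO. The T-5224 libraries lay just below (log2 fold change -0.15, standard error 0.06, limma adjusted p = 0.0245), and this call was lost without DMSO replicate 1 (adjusted p = 0.129), without T-5224 replicate 2 (adjusted p = 0.157) and without the mean-variance trend (adjusted p = 0.0706).

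The share of Hk2 in the summed RPKM of Hk1 and Hk2 was 24.9%, 28.6% and 31.1% with DMSO and 33.7%, 35.4% and 36.0% with SB431542. It was 30.0% and 27.2% with DMSO and 43.7% and 44.9% with T-5224. The treated libraries had the higher share in each experiment. The exact permutation test (two-sided) gave p = 0.1 for SB431542 and p = 0.333 for T-5224, the smallest values that 3 against 3 and 2 against 2 libraries allow, so this test could not pass 0.05.

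Phosphofructokinase makes fructose 1,6-bisphosphate, the committed step. Pfkp, its platelet-type subunit (chromosome 13, 6579014 to 6648023, 22 exons), was at 87.66, 88.74 and 83.36 RPKM with DMSO and at 98.15, 100.05 and 92.43 RPKM with SB431542. The treated libraries were above, but the difference did not pass the threshold (log2 fold change 0.16, standard error 0.05, limma adjusted p = 0.0745). Without DMSO replicate 1 its adjusted p was 0.0172. With T-5224 Pfkp was at 106.1 and 103.6 RPKM, against 144.1 and 144.9 RPKM with DMSO. It fell by 0.46 on the log2 scale (standard error 0.05, limma adjusted p = 4.7e-06). The share of Pfkp among the 3 phosphofructokinase genes Pfkp, Pfkl and Pfkm was 55.5% and 53.4% with DMSO and 61.0% and 61.2% with T-5224. The share went up while Pfkp itself went down, since Pfkl fell by more (exact permutation test, two-sided, p = 0.333, the smallest possible). With SB431542 the share overlapped between the groups, at 56.7% ± 2.17 with DMSO and 58.6% ± 0.13 with SB431542 (SD, n = 3 each, exact permutation test, two-sided, p = 0.4).

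Aldolase splits the six-carbon sugar, and triose phosphate isomerase keeps both products in the pathway. Aldoa (chromosome 7, 133938748 to 133944265, 10 exons) was at 534.1, 485.9 and 487.3 RPKM with DMSO and at 495.1, 496.9 and 458.9 RPKM with SB431542. These ranges overlapped and Aldoa was not called (log2 fold change -0.05, standard error 0.06, limma adjusted p = 0.569). With T-5224 it was at 901.2 and 868.0 RPKM, against 1060 and 1175 RPKM with DMSO. It fell by 0.34 on the log2 scale (standard error 0.06, limma adjusted p = 0.000322). Tpi1 (chromosome 6, 124760604 to 124764314, 7 exons) was at 359.4, 367.4 and 372.4 RPKM with DMSO and at 415.7, 405.7 and 381.6 RPKM with SB431542. The treated libraries lay above, the nearest by a small margin (log2 fold change 0.13, standard error 0.05, limma adjusted p = 0.131, and 0.0435 without DMSO replicate 1). With T-5224 Tpi1 was at 322.4 and 317.9 RPKM, against 579.9 and 630.3 RPKM with DMSO. This fall of 0.92 on the log2 scale (standard error 0.06, limma adjusted p = 3.32e-08) was the third largest of the 10 genes.

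The payoff phase holds phosphoglycerate kinase, which makes the first ATP, phosphoglycerate mutase, which moves the phosphate, and enolase, which makes phosphoenolpyruvate. Pgk1 (chromosome X, 103382439 to 103399038, 11 exons) was at 245.2, 325.5 and 340.4 RPKM with DMSO and at 362.6, 369.3 and 354.4 RPKM with SB431542. The DMSO libraries were far from even, and DMSO replicate 1 was 0.44 below the mean of the other DMSO libraries on the log2 scale, the widest such gap of the 10 genes. The difference was not called (log2 fold change 0.27, standard error 0.12, limma adjusted p = 0.148, and 0.0191 without that library). With T-5224 Pgk1 was at 16.64 and 17.07 RPKM, against 27.5 and 28.79 RPKM with DMSO. It fell by 0.72 on the log2 scale (standard error 0.06, limma adjusted p = 6.16e-07).

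Pgam1 (chromosome 19, 41986361 to 41993154, 4 exons) was at 447.3, 501.9 and 504.6 RPKM with DMSO and at 587.9, 590.6 and 550.1 RPKM with SB431542. The treated libraries were above, and Pgam1 passed the threshold (log2 fold change 0.25, standard error 0.07, limma adjusted p = 0.0376). That call was kept without DMSO replicate 1 (adjusted p = 0.0038) and lost when any other library was left out, with an adjusted p of 0.0671 without DMSO replicate 2, 0.051 without DMSO replicate 3, and 0.137, 0.146 and 0.0857 without SB431542 replicates 1, 2 and 3. The call did not hold when low genes were kept in the fit (adjusted p = 0.093) or with quantile normalization (adjusted p = 0.0547). It was also lost with the replicate number as a block (limma adjusted p = 0.0957). With T-5224 it was at 42.59 and 38.39 RPKM, against 60.85 and 64.85 RPKM with DMSO. It fell by 0.63 on the log2 scale (standard error 0.06, limma adjusted p = 2.99e-06). Eno1 (chromosome 4, 149610830 to 149622988, 12 exons) was at 375.6, 429.7 and 432.2 RPKM with DMSO and at 472.7, 483.1 and 454.4 RPKM with SB431542. The treated libraries lay above and the difference was not called (log2 fold change 0.19, standard error 0.07, limma adjusted p = 0.0927, and 0.0169 without DMSO replicate 1). With T-5224 Eno1 was at 65.48 and 64.12 RPKM, against 89.64 and 105.9 RPKM with DMSO. It fell by 0.58 on the log2 scale (standard error 0.07, limma adjusted p = 1.46e-05).

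Ldha, the muscle-type lactate dehydrogenase subunit (chromosome 7, 54096845 to 54110997, 8 exons), had the largest fall of the 10 genes with T-5224. It was at 808.0 and 913.4 RPKM with DMSO and at 284.9 and 280.6 RPKM with T-5224. The groups were far apart, with means of 861 ± 74.6 and 283 ± 3.06 RPKM (SD, n = 2 each). The level was 3.03-fold lower (log2 fold change -1.60, standard error 0.06, limma adjusted p = 8.31e-10). In the SB431542 experiment it was at 567.7, 655.7 and 677.5 RPKM with DMSO and at 755.4, 769.3 and 719.1 RPKM with SB431542. The treated libraries lay above, and the difference was not called (log2 fold change 0.24, standard error 0.08, limma adjusted p = 0.0644, and 0.00706 without DMSO replicate 1).

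**Figure D2:**
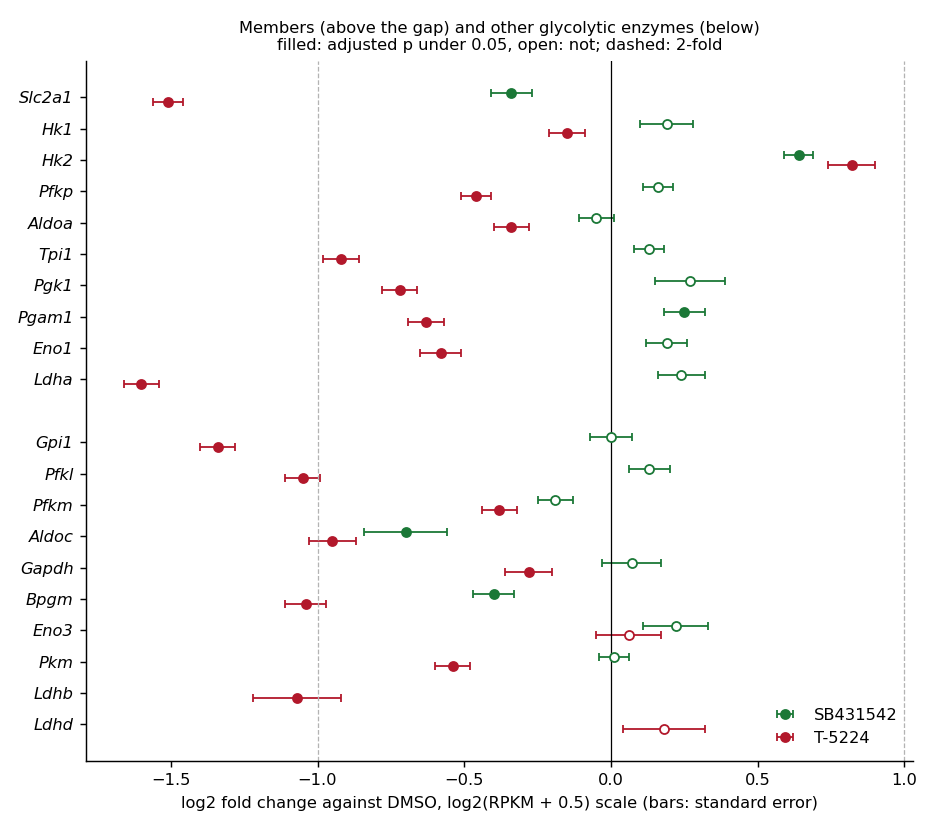
Log2 fold change against DMSO on the log2(RPKM + 0.5) scale, with its standard error, for the 10 genes (above the gap) and the other glycolytic enzyme genes tested (below), with SB431542 in green and T-5224 in red, filled where the adjusted p is below 0.05. The T-5224 points lie left of 0 except for Hk2, Eno3 and Ldhd, with Ldha at -1.60, and most SB431542 points lie within 0.3 of 0.

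Of the glycolytic enzyme genes outside the 10, 10 could be tested with T-5224 and 6 more were listed below the limit of 1 RPKM. Of those tested, 8 were lower, when 39.4% of all genes were, 4 of them past 2-fold, when 10.6% of all genes were, and 0 were higher (limma, 0 also at an unadjusted p below 0.05). Gpi1, which interconverts glucose and fructose 6-phosphate, went from 110.0 and 121.8 RPKM with DMSO to 44.74 and 45.95 RPKM with T-5224 (log2 fold change -1.34, limma adjusted p = 2.76e-09). Bpgm (-1.04), which makes 2,3-bisphosphoglycerate, Pfkl (-1.05), the liver-type phosphofructokinase, and Ldhb (-1.07), the heart-type lactate dehydrogenase, were also down past 2-fold, the last from a mean of 1.98 to 0.669 RPKM. Ldhb passed the limit of 1 RPKM through its DMSO libraries alone, and without it 7 of 9 were lower, 3 of them past 2-fold. The brain-type aldolase Aldoc (-0.95), the pyruvate kinase Pkm (-0.54), Pfkm (-0.38) and Gapdh (-0.28) were lower by less. The call of Gapdh was lost without T-5224 replicate 1 (adjusted p = 0.0543). Eno3 was at a log2 fold change of 0.06 and Ldhd at 0.18, and neither was called (adjusted p = 0.622 and 0.266).

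With SB431542, 2 of 8 of these enzymes were lower and 0 were higher, when 10.0% of all genes were lower and 10.2% higher. At an unadjusted p below 0.05, 3 were lower and 0 higher (limma), and the median log2 fold change was 0.00. Aldoc went from 8.468, 8.104 and 9.022 RPKM with DMSO to 5.708, 5.809 and 3.887 RPKM (log2 fold change -0.70, limma adjusted p = 0.015). Bpgm went from 25.42, 23.07 and 22.83 RPKM to 18.5, 18.71 and 16.37 RPKM (log2 fold change -0.40, limma adjusted p = 0.0105). Both were thus lower with each inhibitor. The log2 fold changes of the other 6 lay between -0.19 for Pfkm and 0.22 for Eno3, with Gpi1 at 0.00, Pkm at 0.01, Gapdh at 0.07 and Pfkl at 0.13. The share of Aldoc in the summed RPKM of Aldoa and Aldoc was 1.67% ± 0.132 with DMSO and 1.05% ± 0.178 with SB431542 (SD, n = 3 each, exact permutation test, two-sided, p = 0.1, the smallest possible).

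In DMSO of the SB431542 experiment the 10 genes ranked Ldha (634 RPKM), Aldoa (502), Pgam1 (485), Eno1 (413), Tpi1 (366), Pgk1 (304), Slc2a1 (125), Pfkp (86.6), Hk1 (40.4) and Hk2 (15.7), and only Aldoa and Pgam1 overlapped with their neighbour over the 3 libraries. In DMSO of the T-5224 experiment the order was Aldoa (1118 RPKM), Ldha (861), Tpi1 (605), Slc2a1 (573), Pfkp (145), Eno1 (97.7), Pgam1 (62.8), Hk1 (56.5), Pgk1 (28.1) and Hk2 (22.7), and only Tpi1 and Slc2a1 overlapped. The DMSO levels of Pgk1 were thus 10.8-fold, of Pgam1 7.71-fold and of Eno1 4.22-fold lower in the second table than in the first, and that of Gapdh was 214-fold lower, at 10.6 against 2281 RPKM. Slc2a1 differed the other way, by 4.59-fold. Over the 10462 genes tested in both tables, the median log2 ratio of the DMSO means was 0.011, 3.5% of genes were lower by over 4-fold in the T-5224 table and 0.468% were higher by over 4-fold. The tables were normalized separately, so these levels are set side by side without a test.

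Pgk1, Pgam1, Eno1 and Gapdh, which were lower in the T-5224 table, share most of their mRNA with other places in the genome. Of all 50-base stretches of the mRNA, 92.9% in Pgk1, 91.9% in Pgam1, 72.2% in Eno1 and 85.6% in Gapdh occur base for base elsewhere in the mm9 assembly, Gapdh at 232 places. The share was 29.1% in Ldha, 23.6% in Tpi1, 14.8% in Aldoa and 0.0% in Slc2a1, Hk1, Hk2 and Pfkp. It was 41.4% in Pkm and 31.4% in Gpi1, whose DMSO levels were 1.31-fold and 1.11-fold lower in the T-5224 table. Stretches were counted only for glycolysis genes, so no share over all genes stands beside these. As examples, 50 coding bases of each of 4 genes follow, 5′ to 3′ on the coding strand of mm9. Each is the coding stretch found at the most other places, or the first of these in a tie. Stretches that match 1 excluded chromosome were left out of this choice. The stretch of Slc2a1 is not shared. All are in lower case because the whole stretch is compared.
Slc2a1, from coding base 1, found at 0 other places: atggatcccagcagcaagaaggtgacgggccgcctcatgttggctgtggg
Pgk1, from coding base 927, found at 3 other places: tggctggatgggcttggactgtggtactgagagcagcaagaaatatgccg
Ldha, from coding base 74, found at 8 other places: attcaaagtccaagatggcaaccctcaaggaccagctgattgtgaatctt
Gapdh, from coding base 415, found at 82 other places: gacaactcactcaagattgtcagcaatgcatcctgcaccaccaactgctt
How reads that align to several places were counted is not given in the sources used here. Its part in the level differences and in the fold changes was not tested. The reads behind a value were estimated from its RPKM, the mRNA length and the depth worked out for the library. Within the T-5224 table these estimates ran from 1526 to 2049 per library for Pgk1 and from 458 to 618 for Gapdh. The gene lengths used for the deposited RPKM are not known, so they are approximate. Eno1b, a near-copy of Eno1 that was looked up after its values were seen, is listed separately and can take reads of Eno1. Its mean was 597 RPKM with DMSO and 690 RPKM with SB431542 (log2 fold change 0.21, limma adjusted p = 0.105), and 327 RPKM with DMSO and 212 RPKM with T-5224 (log2 fold change -0.62, limma adjusted p = 2.5e-06). The fold changes of Eno1 and Eno1b were close in each table, and both are uncertain to the extent that reads were split between them.

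**Figure D3:**
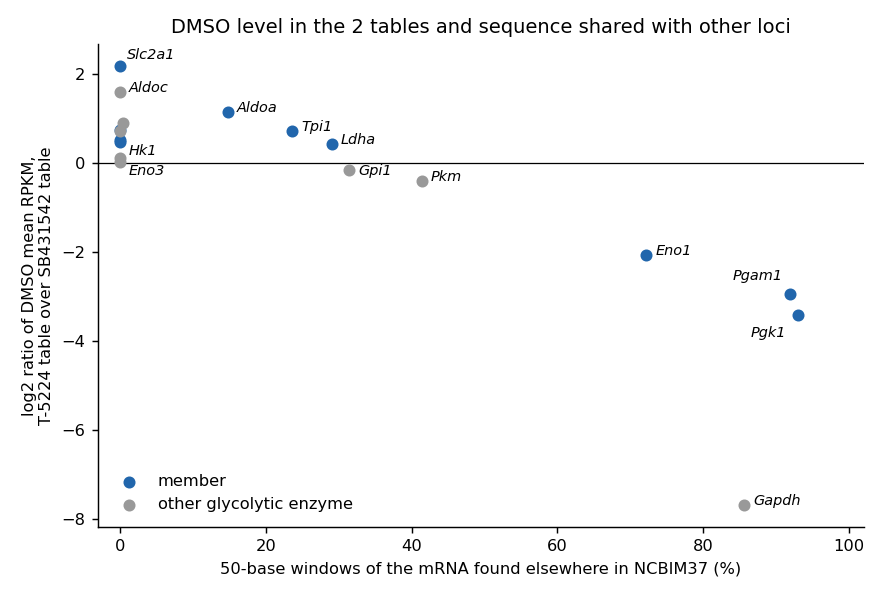
Log2 ratio of the DMSO mean RPKM in the T-5224 table over that in the SB431542 table (vertical) against the percent of the mRNA's 50-base stretches found elsewhere in the mm9 assembly (horizontal), for the 10 genes (blue) and other glycolytic enzymes (grey). Eno1, Pgam1, Pgk1 and Gapdh, with 72.2% to 92.9% of stretches shared, have the lowest ratios, and Slc2a1, with 0.0%, the highest at 2.19.

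Among the other hexose and lactate transporters, Slc16a1 was higher and Slc2a5 lower with each inhibitor. Slc16a1 encodes MCT1, which carries lactate and pyruvate across the plasma membrane. It went from 25.47, 29.82 and 29.45 RPKM with DMSO to 42.69, 44.97 and 43.4 RPKM with SB431542 (log2 fold change 0.62, limma adjusted p = 0.00178), and from 19.63 and 17.17 RPKM with DMSO to 66.75 and 64.65 RPKM with T-5224 (1.81, adjusted p = 7.21e-10). Slc2a5, the fructose transporter, had log2 fold changes of -0.60 (adjusted p = 0.00344) and -1.73 (adjusted p = 3.74e-07), and Slc16a7, which encodes MCT2, was lower with T-5224 (-1.55). In the T-5224 experiment both were below 1 RPKM on average when treated, at 0.339 and 0.831 RPKM, and passed the limit through their DMSO libraries alone. Across the processing alternatives their log2 fold changes ran from -2.44 to -1.30 and from -1.91 to -1.26. Of 5 transporters tested, 1 was lower and 1 higher with SB431542 (10.0% and 10.2% of all genes), and 4 were lower and 1 higher with T-5224 (39.4% and 40.3% of all genes), or 2 lower and 1 higher of 3 without this pair. Slc16a3, which encodes the lactate exporter MCT4, was below the limit of 1 RPKM on average in both tables and was not tested.

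Of the regulators of the pathway, Txnip moved most with SB431542. Txnip, which restrains glucose uptake, was at 33.26, 40.09 and 39.71 RPKM with DMSO and at 14.94, 11.73 and 12.02 RPKM with SB431542 (log2 fold change -1.51, limma adjusted p = 0.000294), and at 175.3 and 185.1 RPKM with DMSO and at 91.75 and 87.24 RPKM with T-5224 (-1.01, adjusted p = 1.26e-08). It was thus lower with both inhibitors. Its relative Arrdc4 was lower with SB431542 (-0.71, adjusted p = 0.0167, lost without DMSO replicate 2, SB431542 replicate 1 or SB431542 replicate 3, at most 0.0757) and higher with T-5224 (1.25, adjusted p = 1.36e-08). Pfkfb2 fell (-0.68) and Pfkfb3 rose (0.76) with T-5224, both of which set the level of fructose 2,6-bisphosphate, the activator of phosphofructokinase. Counts were 2 lower and 0 higher of 6 tested with SB431542 (limma, 2 and 1 at an unadjusted p below 0.05), and 2 lower and 3 higher of 5 with T-5224. Of all genes, 10.0% were lower and 10.2% higher with SB431542, and 39.4% lower and 40.3% higher with T-5224.

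At the entry of pyruvate into mitochondria, the kinases that switch off pyruvate dehydrogenase fell with T-5224, all 3 that could be tested. Pdk2 went from 15.04 and 16.3 to 4.582 and 3.592 RPKM (log2 fold change -1.83, limma adjusted p = 1.89e-08), Pdk3 changed by -1.10 and Pdk1 by -0.63. The mitochondrial pyruvate carrier genes Mpc1 (0.77) and Mpc2 (0.59) rose. The DMSO libraries of Mpc1 were uneven there, at 5.053 and 7.671 RPKM. Their mean of 6.36 RPKM lay far below the 55.6 RPKM with DMSO in the SB431542 experiment, a gap that was not tested. Counts for this list were 4 lower and 6 higher of 13, when 39.4% of all genes were lower and 40.3% higher. With SB431542 they were 1 lower and 2 higher of 13, when 10.0% and 10.2% of all genes were. Pdk2 fell with SB431542 (-0.67, adjusted p = 0.00552). The pyruvate carboxylase Pcx rose from 4.514, 4.799 and 4.508 to 9.255, 9.052 and 8.768 RPKM (0.90, adjusted p = 0.000214). Pdk1 rose as well (0.23, adjusted p = 0.0367, kept only without DMSO replicate 1 and at most 0.139 otherwise).

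In the pentose phosphate pathway, which makes NADPH and ribose, 5 of 7 genes were higher and 1 lower with T-5224, when 40.3% of all genes were higher and 39.4% lower. Differences between the branches were not tested. Rpia rose by 1.38 and Taldo1 by 0.78, and G6pdx, the entry enzyme, fell by 0.36. In gluconeogenesis, the mitochondrial Pck2 went from 7.845 and 7.164 to 36.05 and 34.5 RPKM with T-5224 (log2 fold change 2.16, limma adjusted p = 1.91e-10), G6pc3 rose (0.93), and Fbp2, a fructose 1,6-bisphosphatase, went from 22.85 and 23.18 to 4.885 and 4.604 RPKM (-2.17, adjusted p = 2.31e-10). In glycogen metabolism 5 of 8 genes were lower, when 39.4% of all genes were. Among them were Pgm2 (-1.06) and the glycogen synthase Gys1 (-0.63), and the branching enzyme Gbe1 was higher (0.61).

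With SB431542 few genes of these branches were called. In glycogen metabolism 0 of 8 genes were called (limma, 1 lower and 1 higher at an unadjusted p below 0.05). Of all genes, 10.0% were lower and 10.2% higher. In the pentose phosphate pathway Pgd was lower (-0.25, adjusted p = 0.017, at most 0.0835 and lost without any of the 3 SB431542 libraries) and Rpia higher (0.44, adjusted p = 0.0297, at most 0.106 and kept only without DMSO replicate 1 or DMSO replicate 3). Fbp2 was lower, from 79.24, 75.83 and 73.64 to 43.2, 48.0 and 45.7 RPKM (-0.73, adjusted p = 0.000402), and Pck2 higher (0.46, adjusted p = 0.0478, at most 0.159 and kept only without DMSO replicate 1 or DMSO replicate 2).

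**Figure D4:**
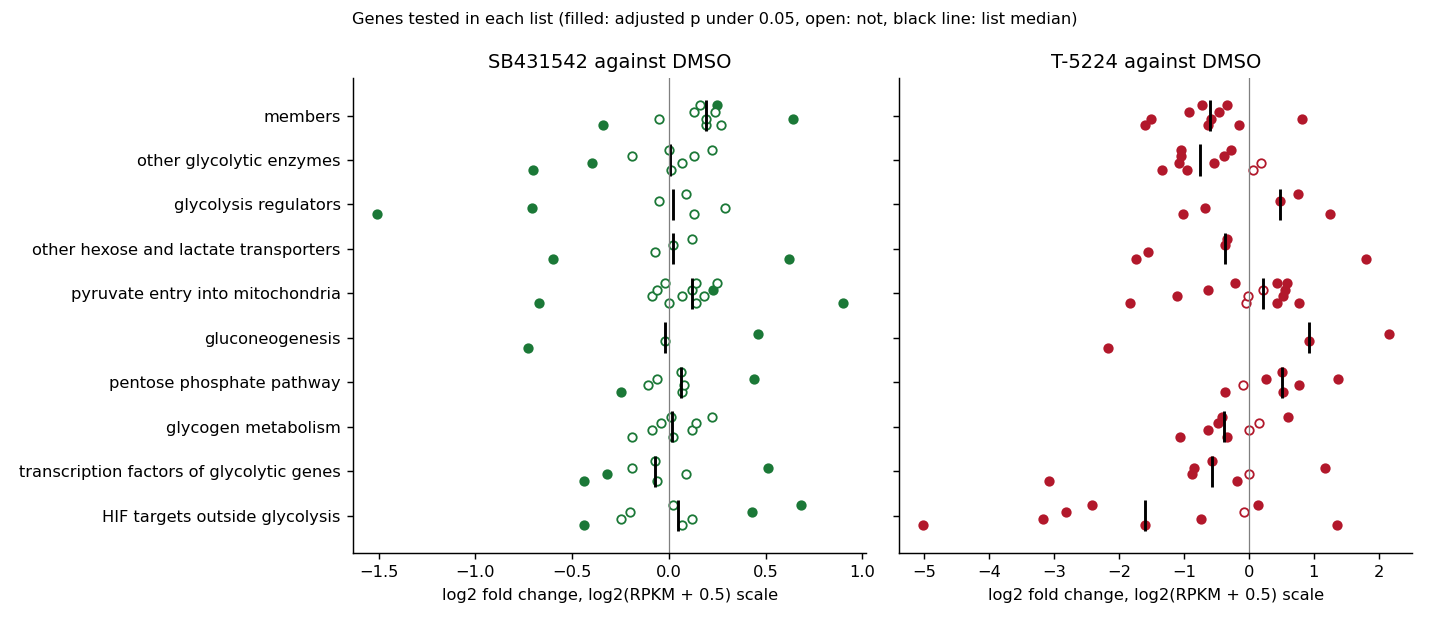
Log2 fold change (log2(RPKM + 0.5) scale) of each gene tested in the 10 glycolysis genes and 9 related lists, with SB431542 (left, green) and T-5224 (right, red) on axes of unequal width, filled where the adjusted p is below 0.05 and with a black line at the median of the list. With T-5224 the medians lie at -0.61 for the 10 genes, -0.74 for the other enzymes (-0.54 without Ldhb) and -1.60 for HIF targets (-0.73 without the 2 genes that fell below 1 RPKM), and at 0.51 for the pentose phosphate pathway.

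Among the transcription factors known to act on glycolytic genes, the HIF α-subunit genes Epas1 and Hif1a were lower with both inhibitors. Epas1, which encodes HIF-2α, was at 21.56 and 24.37 RPKM with DMSO and at 2.411 and 2.184 RPKM with T-5224 (log2 fold change -3.07, limma adjusted p = 7.37e-11). Hif1a was at 183.7 and 176.1 RPKM with DMSO and at 124.9 and 118.4 RPKM with T-5224 (-0.56, adjusted p = 1.49e-06). Myc rose from 31.76 and 36.31 to 78.35 and 77.24 RPKM (1.18, adjusted p = 1.83e-08), while Mlxip, a partner in glucose sensing, fell (-0.87). With SB431542 the changes were smaller. Hif1a went from 136.2, 106.8 and 98.37 to 85.92, 82.76 and 79.61 RPKM (-0.44, adjusted p = 0.0336, at most 0.126 and kept only without DMSO replicate 1 or DMSO replicate 3). Epas1 was at -0.32 (adjusted p = 0.0303, at most 0.117 and kept only without DMSO replicate 1), Esrra at 0.51 (adjusted p = 0.0329, at most 0.114 and kept only without DMSO replicate 1 or DMSO replicate 3), and Myc at -0.06, which was not called (adjusted p = 0.699). Of 7 factors tested, 2 were lower and 1 higher with SB431542 (10.0% and 10.2% of all genes). With T-5224, 5 were lower and 1 higher (39.4% and 40.3% of all genes).

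Of the HIF targets with other functions, 6 of 9 were lower and 2 higher with T-5224, when 39.4% of all genes were lower and 40.3% higher. Ndufa4l2 and Ankrd37 passed the limit of 1 RPKM through their DMSO libraries alone, and without them 4 of 7 were lower and 2 higher, with a median log2 fold change of -0.73 instead of -1.60. Egln3, a prolyl hydroxylase that marks HIF for degradation, went from 21.94 and 22.3 to 1.87 and 2.171 RPKM (log2 fold change -3.17, limma adjusted p = 4.85e-11). Ndufa4l2, a mitochondrial protein gene, was at 20.57 and 60.77 RPKM with DMSO, an uneven pair, and at 0.703 and 0.524 RPKM with T-5224 (-5.02, standard error 0.34, adjusted p = 9.53e-08). Vegfa, the angiogenic growth factor gene, rose instead, from 43.54 and 39.56 to 109.4 and 105.0 RPKM (1.36, adjusted p = 2.54e-09), and Ddit4 was higher by 0.14 (adjusted p = 0.0242, kept only without T-5224 replicate 2 and at most 0.116 otherwise). With SB431542, 1 of 8 was lower and 2 were higher, when 10.0% of all genes were lower and 10.2% higher. The lower gene was P4ha2 (-0.44, adjusted p = 0.00302). The higher genes were Ankrd37 (0.68, adjusted p = 0.00736) and Egln3 (0.43, adjusted p = 0.0104, and 0.055 without SB431542 replicate 2). The DMSO means differed between the experiments. In the T-5224 and SB431542 experiments they were 22.1 and 5.1 RPKM for Egln3, 40.7 and 1.16 for Ndufa4l2, and 41.5 and 16.1 for Vegfa. These level differences were not tested.

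The genes whose profile over the 10 libraries was most like the median profile of the 10 glycolysis genes were sought among the 10462 genes tested in both experiments, by the Euclidean distance between log2 deviations from the DMSO mean of each experiment. The 5 nearest were Ttll12 (distance 0.0915), Igsf3 (0.106), Dynll2 (0.108), Atp5l (0.133) and Nectin1 (0.138), with log2 fold changes between 0.17 and 0.21 with SB431542 and between -0.69 and -0.58 with T-5224. The DMSO mean of Atp5l was 146 RPKM in the SB431542 experiment and 3.58 RPKM in the T-5224 experiment. The median profile was made from the 10 genes, so those in their middle lie close to it by construction. Of the 10 genes themselves, Pgam1 (distance 0.153) ranked 7 and Eno1 (0.171) ranked 14 in that order, whereas Hk2 (2.18) ranked 8879 and Slc2a1 (1.58) ranked 7106. The 10 genes thus did not follow a single profile.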

How the data were processed

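RNA-seq libraries (TruSeq Stranded mRNA, HiSeq2000) of ASZ001 cells were aligned by the authors with TopHat to mm9, and the deposited RPKM per gene and library were made with HOMER. Counts were not analysed here, so no count test was run. Groups came from the labels, and 0 columns of values were left out. DMSO replicates 1 and 2 of the T-5224 experiment are named by their columns, while the labels number them 4 and 5.

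Rows whose symbol had become a date (22 and 23) were dropped, and genes averaging 1 RPKM or more were tested (10842 and 10809). The test was limma (version 3.58.1, R 4.3.3) on log2(RPKM + 0.5), using a mean-variance trend, and p-values were adjusted by Benjamini-Hochberg. Read depth was worked out from low RPKM values, which lie on whole-read steps. Positions and 50-base stretches came from NCBIM37 (mm9) with its GENCODE annotation, and promoters from RefSeq on GRCm38.p6, where all 10 genes matched. All p-values measure the spread between cultures of 1 line.

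The members and the gene lists were chosen with earlier results of these data known. Named by rule were the 10 genes, the tested genes of the other glycolytic enzymes, the 2 largest called rises and falls of each further list, Hif1a, Epas1, Myc, Txnip, Slc16a1, Slc16a3 and Pdk1, and the 5 nearest profiles. Alternatives were pseudocounts of 0.1 and 1, no filter or a mean RPKM of at least 5, median centring, quantile normalization, no trend, the replicate number as a block and each library left out.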

Additional observations from a re-analysis of the deposited data

Results flagged for a closer look

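In 6 of the 10 genes every SB431542 library lay above every DMSO library of its experiment and every T-5224 library lay below every DMSO library of its own, as in 5.73% of the 10462 genes tested in both experiments. The 10 genes were chosen with earlier results known, so nothing is read from this share. The log2 fold changes with SB431542 and T-5224 were 0.16 and -0.46 for Pfkp, 0.13 and -0.92 for Tpi1, 0.27 and -0.72 for Pgk1, 0.25 and -0.63 for Pgam1, 0.19 and -0.58 for Eno1, and 0.24 and -1.60 for Ldha. The difference between the inhibitors was not tested, since the experiments have separate controls, numbers of libraries and tables. Of these values, only that of Pgam1 passed the threshold with SB431542 and all libraries, and all 6 passed it with T-5224. The DMSO levels of Pgk1, Pgam1 and Eno1 were 10.8-fold, 7.71-fold and 4.22-fold lower in the T-5224 experiment than in the SB431542 experiment. Of their 50-base mRNA stretches, 92.9%, 91.9% and 72.2% occur elsewhere in the genome. The part of this sharing in their fold changes was not tested.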

How the results depend on the processing

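Each of the 10 genes kept its direction in all alternatives run. With T-5224, 38 of 40 values with a library left out and 69 of 70 under other processing stayed on the same side of the threshold, the exceptions being Hk1. With SB431542, the number of genes that were higher, 2 with all libraries, was 1 with no filter, 1 with quantile normalization, 3 with median centring (Ldha added, adjusted p = 0.0431), and 1 to 8 with each library left out, 8 being without DMSO replicate 1. The cause of that spread was not tested. The count of other glycolytic enzymes that were higher, 0 with all libraries in each experiment, was 0 to 1 with each library left out for SB431542 (1 without DMSO replicate 1 and 1 without DMSO replicate 2), and for T-5224 it was 1 with no filter, 1 with quantile normalization and 0 to 1 with each library left out (1 without DMSO replicate 2).

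The SB431542 labels share replicate numbers. Same-numbered libraries had correlations of -0.148, 0.151 and -0.095 between their deviations from the group means. Those of libraries with unlike numbers ran from -0.171 to 0.196. These values show no pairing, but with so few libraries they cannot exclude it. With the replicate number as a block 1 gene was higher instead of 2, since Pgam1 then had a limma adjusted p of 0.0957. No paired analysis was run for T-5224, since its labels share no replicate number with their DMSO libraries. The numbers 1 and 2 given to these DMSO libraries here only name columns that could not be matched to single labels. List counts without genes whose treated mean fell below 1 RPKM were added after the data were seen. With 2 libraries a group, exact tests of single values cannot reach 0.05, and leaving out a T-5224 experiment library assumes that the lone library varies like the other group.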
